A study of Mus musculus with 11 samples.

Results

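Egr1, Egr2, Egr3, Ier2, Ier3, Ier5, Nr4a1, Nr4a2 and Nr4a3 are early response genes, and their RNA was followed here in the quadriceps of mice that wasted from a tumor. They are 9 of the 19057 genes with a probe on the array. Their probes were found by their symbol in the platform's annotation, which gave 12 probes, and no probe was found through a former symbol alone. The array, Illumina MouseWG-6 v2.0, was hybridized with total RNA of 11 female CD2F1 mice of 5 to 6 weeks, 1 array per mouse. The groups were 4 mice with severe cachexia at about 15% weight loss, 3 mice with moderate cachexia at about 10% weight loss, and 4 control mice without a tumor. Tumor-bearing mice had been injected with C26 cells, a mouse colon adenocarcinoma line, and controls, per the methods, with PBS. The labels name no other allele or agent. Labels and methods differ on the vendor of the mice and on the site of injection. The design asks what the tumor changed in muscle at each stage, and what differed between the stages.

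Early response genes are switched on within minutes of a growth factor, cytokine, contraction or stress signal, from factors already present in the cell. The EGR proteins are zinc finger transcription factors that bind GC-rich sites, and are needed in mice for tendon matrix (EGR1 and EGR2), nerve myelination (EGR2) and muscle spindles (EGR3). The NR4A proteins are orphan nuclear receptors that act without a known hormone and are induced in rodent muscle by exercise and adrenergic signals. IER2 and IER5 are nuclear regulators, and IER3 is a stress-induced protein that modulates cell survival and is a known NF-kB target. In whole muscle, a lower level in each fibre and fewer cells of a type that carries the RNA cannot be told apart.

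The upstream bases of Ier3, Nr4a3 and Egr2 are shown because the classic routes to early genes are written there. In the fit reported below, Ier3 and Nr4a3 passed the test and Egr2 did not. Sequences are from RefSeq's table of promoters on build GRCm38.p6, which matched 6 of the 9 genes by symbol, and each is given 5′ to 3′ along the gene's own strand. The sequences of Ier3 at chr17:35821463-35821712, plus strand, and of Nr4a3 at chr4:48045055-48045304, plus strand, are the 250 bases just before the annotated start. That of Egr2 at chr10:67537752-67537851, plus strand, is a stretch of 100 bases inside such a window. Capitals mark matches, on either strand, to the motifs that were searched: the CArG box bound by SRF, the CRE core TGACG bound by CREB, and the NF-kB site.
Ier3: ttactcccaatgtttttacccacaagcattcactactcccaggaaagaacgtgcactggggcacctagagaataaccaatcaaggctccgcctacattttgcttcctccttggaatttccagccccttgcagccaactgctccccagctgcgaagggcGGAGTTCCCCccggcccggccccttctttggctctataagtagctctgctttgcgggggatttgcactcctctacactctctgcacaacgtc
Nr4a3: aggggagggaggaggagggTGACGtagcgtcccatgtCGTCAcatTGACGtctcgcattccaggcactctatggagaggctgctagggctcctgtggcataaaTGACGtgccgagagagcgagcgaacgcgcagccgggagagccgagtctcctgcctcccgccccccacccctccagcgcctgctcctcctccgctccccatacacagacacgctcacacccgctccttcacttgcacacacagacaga
Egr2: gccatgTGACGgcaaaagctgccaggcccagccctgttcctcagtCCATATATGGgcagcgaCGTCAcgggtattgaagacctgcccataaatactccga

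The Ier3 window held 1 NF-kB site, 92 to 83 bases before the start, and no CArG box or CRE core. The Nr4a3 window held 4 CRE cores and neither of the other motifs, and the windows of Nr4a1 and Nr4a2 also held 4 CRE cores each. Egr2 has 5 windows in the table, 1 for each annotated start. In the window shown, the CArG box lay 72 to 63 bases before the start, between a pair of CRE cores, and the same box lay 73 to 64 and 133 to 124 bases before the starts of 2 overlapping windows. Another window held a different CArG box and no CRE core, and the last held 2 overlapping NF-kB matches and no CArG box. Over all 32851 windows of 250 bases, 17.8% held a CRE core, 7.25% an NF-kB site and 1.47% a CArG box. The window of Nr4a1 also held 1 EGR site (GCGTGGGCG or GCGGGGGCG, 3.06% of windows). Neither the NR4A site NBRE (AAAGGTCA, 1.34% of windows) nor the STAT site GAS (TTCNNNGAA, 7.02%) was found in any window of the 6 genes, and that of Ier5 held none of these motifs. A match says only that these letters are there.

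Of the 12 probes, 6 passed the detection filter, 1 each for Egr1, Egr2, Egr3, Ier3, Nr4a2 and Nr4a3, and these genes were tested beside 10134 genes in all. The filter took a probe when all arrays of some group had a detection p, the chance of such a signal from background, under 0.01. The single probes of Ier2, Ier5 and Nr4a1 were not well above background on any of the 11 arrays, with deposited signals of -5.83 to 5.75 and detection p-values no lower than 0.134. No statement on a change of these 3 genes could be made. Egr1, Egr2 and Ier3 were detected on all 11 arrays. Egr3 passed the filter only through the control mice, Nr4a3 only through the moderate mice and Nr4a2 only through the severe mice.

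Arrays were alike in the number of probes detected, 18626 to 20006. The severe muscle of mouse 11 stood apart from the others of its group. Pearson's r of log2 signals over the genes tested was 0.960 to 0.976 between mouse 11 and the other severe mice, and 0.981 to 0.991 among those 3. Summed signals of 11 macrophage markers were 8614 in mouse 11 and 3739 to 4191 in the other severe mice, 4082 to 5196 in moderate mice and 2419 to 2812 in controls. Values without mouse 11 are given beside the results they move most. Muscle fibre markers were high in every sample, as the tissue label says, with summed signals of 172138 to 180456 in severe, 178304 to 188981 in moderate and 182508 to 191260 in control mice.

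Ier3 was the member that rose at both stages. Its deposited signal was 607.8, 616.8, 654.2 and 639.1 in severe mice 11, 13, 15 and 16. It was 905.4, 933.8 and 703.4 in moderate mice 5, 9 and 12, against 352.5, 238.6, 354.3 and 350.3 in control mice 1 to 4. The 3 groups did not overlap, with moderate mice highest and controls lowest. Ier3 rose 2.55-fold in moderate cachexia (log2 fold change 1.35, standard error 0.15, adjusted p = 6.48e-05, limma). It rose 1.92-fold in severe cachexia (log2 fold change 0.94, standard error 0.14, adjusted p = 0.00057). Between the stages the log2 difference, severe minus moderate, was -0.41 (standard error 0.15, adjusted p = 0.124), which did not pass although the severe and moderate signals did not overlap. Macrophage markers rose as well, 7 of 11 tested at each stage (4 in moderate cachexia without control mouse 1 or moderate mouse 5), and their part in the Ier3 result was not tested. Within the severe group the highest Ier3 signal was 1.08 times the lowest. Without mouse 11 the log2 fold change of Ier3 in severe cachexia was 0.96.

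**Figure D1:**
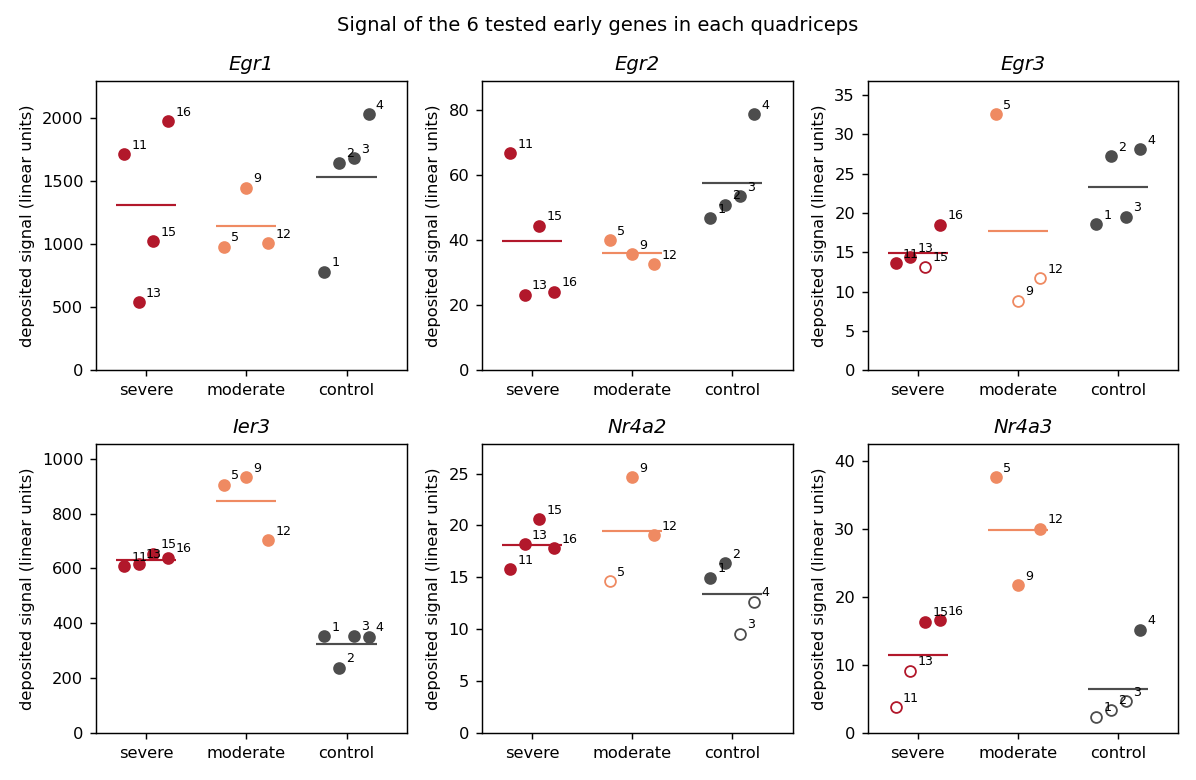
Deposited signal (linear units, y axis) of the 6 tested genes in each severe, moderate and control mouse. Points are mice with their numbers, filled where the detection p was under 0.01, and lines are group means; Ier3 signals lie at 607.8 to 654.2 in severe, 703.4 to 933.8 in moderate and 238.6 to 354.3 in control mice.

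Nr4a3, an NR4A receptor known from human muscle to respond strongly to exercise, rose in moderate cachexia, and most controls were at background. The probe tested had signals of 3.8, 9.17, 16.4 and 16.6 in severe mice 11, 13, 15 and 16, and of 37.6, 21.7 and 30.0 in moderate mice 5, 9 and 12. In control mice 1 to 4 they were 2.4, 3.4, 4.62 and 15.2. Moderate signals lay above those of all other mice, whereas severe and control signals overlapped. The probe was detected in 2 of 4 severe, 3 of 3 moderate and 1 of 4 control mice. The log2 fold change was 0.94 in moderate cachexia (standard error 0.19, adjusted p = 0.00224) and 0.23 in severe cachexia (adjusted p = 0.342). Because the probe passed the filter only through the moderate mice, where it was high, the filter bears on these tests. With no detection filter the adjusted p was 0.00334 for moderate against control and 0.062 for severe against moderate.

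The size of the Nr4a3 rise depended on how background was handled, since most control signals were near 0. On the deposited signals without a further background correction the log2 fold change in moderate cachexia was 2.57, and with a larger offset of 50 it was 0.46, with adjusted p-values of 0.00727 and 0.00201. The log2 difference of Nr4a3 between the stages, severe minus moderate, was -0.71 (adjusted p = 0.0401, standard error 0.19). That call was lost in 7 of the 11 fits that left out 1 array (control 1 or 3, moderate 5 or 12, severe 11, 13 or 16), in which the adjusted p ran up to 0.167.

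A further Nr4a3 probe, which failed the detection filter, had signals of 10.0, 7.57, 24.3 and 14.9 in severe mice 11, 13, 15 and 16. Its signals were 21.9, 13.5 and 30.4 in moderate mice 5, 9 and 12, and 1.42, 12.0, 1.90 and 8.92 in control mice 1 to 4. Moderate and control mice did not overlap on this probe either, and severe mice overlapped with both. The last Nr4a3 probe was not detected on any array.

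Nr4a2, a receptor of the same family that acts in dopamine neurons and is induced by cAMP, was close to background throughout. Its signals were 15.8, 18.2, 20.6 and 17.8 in severe mice 11, 13, 15 and 16, and 14.6, 24.7 and 19.0 in moderate mice 5, 9 and 12. Control mice 1 to 4 had 15.0, 16.4, 9.57 and 12.7, so that all groups overlapped. The log2 fold change was 0.26 in moderate cachexia (95% interval -0.02 to 0.55, adjusted p = 0.127) and 0.21 in severe cachexia (-0.05 to 0.47, adjusted p = 0.196).

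No EGR gene passed the test at either stage. Egr1, the prototype of the family, had signals of 1714, 540.3, 1025 and 1976 in severe mice 11, 13, 15 and 16. The signals were 980.2, 1449 and 1007 in moderate mice 5, 9 and 12, and 782.3, 1647, 1682 and 2032 in control mice 1 to 4. The groups overlapped over nearly their whole range. Within the severe group the highest signal was 3.66 times the lowest, and within the controls 2.6 times. The log2 fold change was -0.36 in moderate cachexia (95% interval -1.21 to 0.49, adjusted p = 0.493) and -0.30 in severe cachexia (-1.09 to 0.49, adjusted p = 0.552).

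Egr2 was lower in every moderate mouse than in any control, yet did not pass. Its signals were 66.7, 23.2, 44.4 and 24.1 in severe mice 11, 13, 15 and 16. They were 40.0, 35.6 and 32.5 in moderate mice 5, 9 and 12, against 46.6, 50.8, 53.4 and 78.6 in control mice 1 to 4. Severe mouse 11 was the only severe mouse within the control range. The log2 fold change was -0.48 in moderate cachexia (standard error 0.24, adjusted p = 0.123) and -0.45 in severe cachexia (standard error 0.22, adjusted p = 0.13). Without severe mouse 11 the spread shared by the groups was smaller, and Egr2 passed at both stages. The log2 fold change was then -0.48 in moderate (adjusted p = 0.0454, limma) and -0.67 in severe cachexia (adjusted p = 0.0107, limma). Both calls rest on leaving out the severe mouse with the highest Egr2 signal and are no support for a fall. Schwann cell markers, which bear on Egr2 in nerve, had 1 of 4 tested genes lower in moderate and 2 of 4 in severe cachexia (1 without control mouse 1 or 2 or severe mouse 15, 3 without severe mouse 11), with summed signals of 1072 to 1594 in severe, 1211 to 1337 in moderate and 1382 to 1934 in control mice. Their part in the Egr2 values was not tested.

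Egr3 lay near background. Its tested probe had signals of 13.6, 14.4, 13.2 and 18.5 in severe mice 11, 13, 15 and 16, and of 32.5, 8.85 and 11.7 in moderate mice 5, 9 and 12. Control mice 1 to 4 had 18.6, 27.2, 19.5 and 28.1. All severe mice lay below all controls by a narrow margin, while moderate mouse 5 was the highest of all and the other moderate mice were the lowest. The log2 fold change was -0.27 in moderate cachexia (standard error 0.20, adjusted p = 0.297) and -0.34 in severe cachexia (standard error 0.18, adjusted p = 0.166). The probe passed the filter only through the controls, where it was high. Without moderate mouse 5 the log2 fold change in moderate cachexia was -0.56 (adjusted p = 0.0194), a value that rests on leaving out the highest mouse and is no support for a fall. The other Egr3 probe was detected on 3 of 11 arrays, with signals of 5.6 to 17.2.

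**Figure D2:**
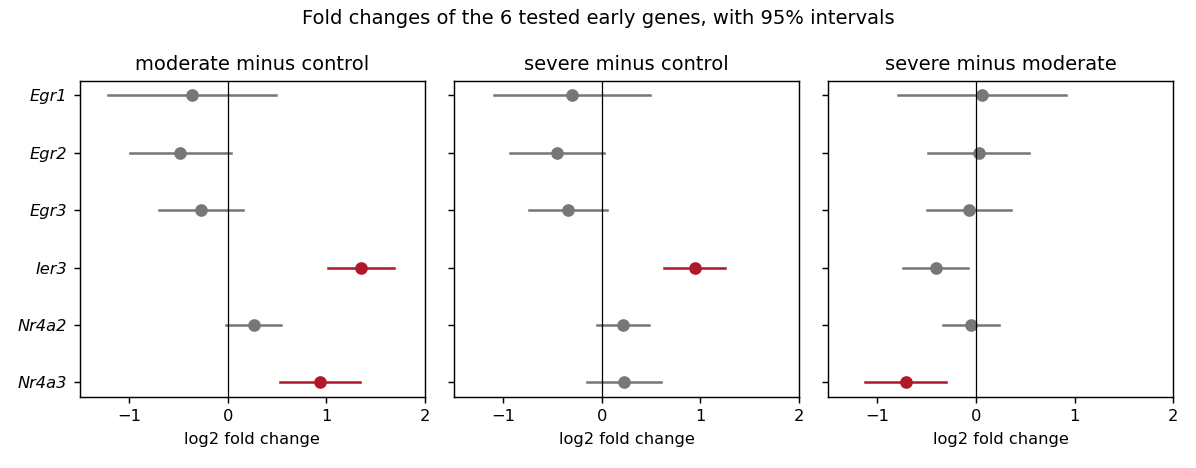
Log2 fold changes (x axis) of the 6 tested genes for moderate minus control, severe minus control and severe minus moderate, with 95% intervals from limma. Red marks an adjusted p under 0.05: Ier3 at both stages, and Nr4a3 in moderate cachexia and between the stages.

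Counts of members are set here beside those of all genes tested. In moderate cachexia 2 of 6 tested members passed, both higher, where 41.1% of all genes tested passed (18.9% higher and 22.2% lower). In severe cachexia 1 of 6 passed, where 33.3% of genes did (15.6% higher and 17.8% lower). Between the stages 1 of 6 passed, against 6.98% of genes. Groups did not overlap for 3 members between moderate and control mice (background 47.7%), for 2 between severe and control mice (32.3%) and for 2 between severe and moderate mice (20.1%). The median log2 fold change of the 6 tested members was -0.0035 in moderate and -0.05 in severe cachexia, and that of all genes was -0.03 and 0.0048.

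Members differed from each other in how widely mice of the same group varied. The within-group SD of log2 signal was 0.65 for Egr1, and 98.2% of genes tested had a smaller one. Among the 863 genes of like mean signal (within 0.5 log2 units), 98.7% did. It was 0.36 for Egr2 (88.4% of genes smaller), 0.29 for Egr3 (76.6%) and 0.27 for Nr4a3 (72.3%). Ier3, at 0.20 (42.9% smaller), and Nr4a2, at 0.14 (15.1%), varied less than the median gene, whose SD was 0.21.

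**Figure D3:**
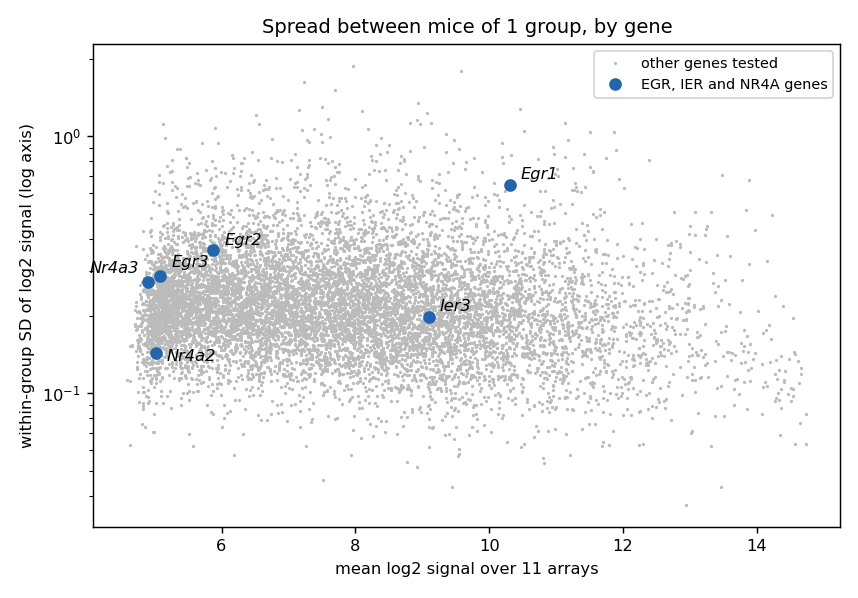
Within-group SD of log2 signal (y axis, log scale) against mean log2 signal over 11 arrays (x axis) for 10134 genes, with the 6 tested members in blue. Egr1, at an SD of 0.65, lies near the upper edge of genes of its brightness, and Ier3, at 0.20, near the middle.

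Other early response genes, which answer to the same signals, rose in large part. Of 7 tested genes among the AP-1 subunits and Atf3, 6 rose in moderate and 5 in severe cachexia, with median log2 fold changes of 1.64 and 1.29. Junb rose by 2.61 log2 units in moderate (standard error 0.28, adjusted p = 3.86e-05) and by 1.48 in severe cachexia (adjusted p = 0.00131). Fos, the AP-1 partner usually induced along with Egr1, rose by 2.44 and 1.83 (adjusted p = 0.000277 and 0.0013). Fosl2 rose by 1.64 and 0.92, and Jun by 1.0 and 1.29. The list was chosen with results of these data known, so its counts are not independent evidence of a direction.

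Among the other early genes, 22 of 30 were tested, of which 13 rose and 1 fell in moderate cachexia, and 10 rose and 4 fell in severe cachexia (2 fell without severe mouse 16). Maff, a small Maf factor, rose by 3.08 and 0.98 log2 units in moderate and severe cachexia, and Csrnp1, a nuclear protein induced by AXIN1, by 2.46 and 1.36. Sik1, a kinase that restrains CREB coactivators, was not well above background in any control. Its signal was higher by at least 6.34-fold in moderate and by at least 2.08-fold in severe cachexia, set against the lowest signal detected on each array. The probes of Sik1 and Maff passed the detection filter only through the cachectic mice, where they were high, so the filter bears on their tests. Klf2, a flow-responsive factor, rose by 1.26 and 0.73. Between the stages 8 of the 22 were lower in severe than in moderate mice and none was higher. Without moderate mouse 5 this count was 4, without severe mouse 16 it was 5, and without severe mouse 11 another 2 genes were higher.

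**Figure D4:**
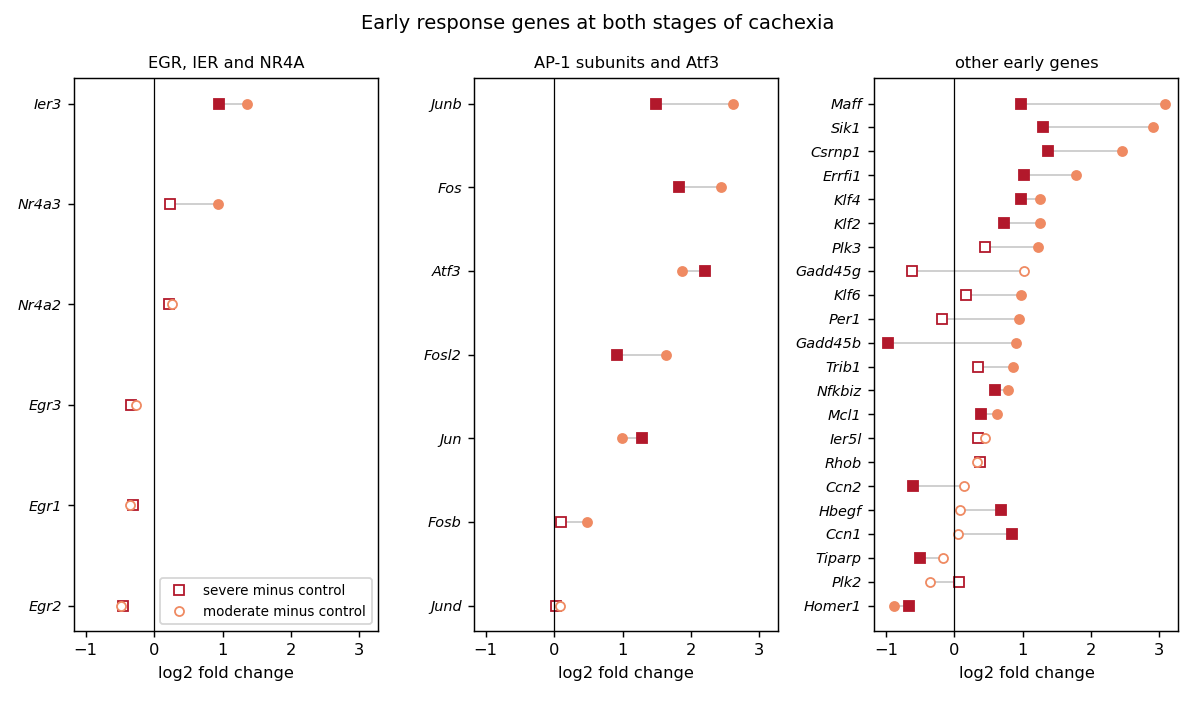
Log2 fold change (x axis) of each tested gene in severe (squares) and moderate cachexia (circles) against control, for the EGR, IER and NR4A genes, the AP-1 subunits with Atf3 and other early genes. Symbols are filled at an adjusted p under 0.05; the EGR genes lie left of 0 with open symbols, while 6 of 7 AP-1 genes are filled at the moderate stage.

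Few genes upstream of the members changed. Of 12 tested kinases and factors of the MAP kinase, SRF and CREB routes, 1 rose and 2 fell in moderate cachexia, and 2 rose and 1 fell in severe cachexia. The shares of all genes tested that passed were 41.1% and 33.3%. Srf, the factor that binds the CArG box, fell by 0.49 log2 units in moderate (adjusted p = 0.0239) and by 0.76 in severe cachexia (adjusted p = 0.00218). With 1 array left out, 1 gene in place of 2 rose in severe cachexia (control 1, 3 or 4, moderate 5, severe 13, 15 or 16), and in moderate cachexia 2 rose (control 2) or 1 fell (control 1, moderate 5 or 12). Elk4, an ETS partner of SRF, rose by 1.34 and 0.74 (adjusted p = 0.00292 and 0.0448). Map2k1, the kinase MEK1, fell by 0.52 in moderate cachexia, and Rps6ka3, the ribosomal S6 kinase RSK2, rose by 0.56 in severe cachexia.

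Feedback inhibitors of early genes were mixed. Of 14 tested, 3 rose and 2 fell in moderate cachexia, and 1 rose and 1 fell in severe cachexia. Of all genes tested, 41.1% passed in moderate and 33.3% in severe cachexia, so these counts do not set the list apart as changed. Without severe mouse 11 there were 5 rises in moderate cachexia, and 3 rises and 3 falls in severe cachexia. In moderate cachexia 1 rose without moderate mouse 12, and 1 fell without control mouse 2 or 4 or moderate mouse 5. In severe cachexia 3 fell without control mouse 1 and 2 without control mouse 3. Zfp36, which speeds the decay of AU-rich early transcripts, rose by 1.80 log2 units in moderate cachexia (adjusted p = 0.000438) and had a log2 fold change of 0.15 in severe cachexia (adjusted p = 0.684). The difference between the stages was -1.66 (adjusted p = 0.00518). Dusp10, a phosphatase of p38 and JNK, fell, with log2 fold changes of -1.87 and -1.32. Zfp36l1 rose by 0.37 and 0.47, and Dusp6, a phosphatase of ERK, fell by 0.62 in moderate cachexia.

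Of the proteins' binding partners, 5 were tested. Rxrg, an RXR partner of nuclear receptors that is enriched in muscle, fell at both stages, by a log2 fold change of -1.51 in moderate (adjusted p = 0.00554) and of -1.29 in severe cachexia (adjusted p = 0.0105). Rxrb rose by 0.86 in moderate cachexia, and Rxra by 0.63 in severe cachexia, a call lost without severe mouse 13 or 16. The EGR corepressors Nab1 and Nab2 did not pass at either stage.

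Tendon and collagen genes known as EGR1 and EGR2 targets in mouse tendon were followed as a list. Of 7 tested, 5 fell in moderate and 4 in severe cachexia and none rose (median log2 fold change -1.39 and -0.90). Tgfb2, a growth factor reported downstream of EGR1 in tendon, fell by 1.63 log2 units in moderate cachexia (log2 fold change -0.90 in severe). Scx, the tendon factor scleraxis, had log2 fold changes of -1.39 and -0.80. Col1a1 fell by 2.24 at each stage, and Col1a2 had log2 fold changes of -0.98 and -1.14, all past the threshold. The Col1a2 probe passed the detection filter only through the controls, where it was high, so the filter bears on its tests. With 1 array left out the falls numbered 3 to 6 in moderate cachexia (3 without moderate mouse 5 or 12) and 2 to 6 in severe cachexia (2 without severe mouse 16). Without severe mouse 11 they numbered 6 at each stage. Summed signals of the list were 2197 in severe mouse 11, at the level of controls (1852 to 2153), and 599 to 1059 in the other severe mice. In moderate mice 5, 9 and 12 they were 484, 1296 and 503. Of 8 fibroblast markers tested, 3 were lower and 5 did not pass at each stage. Their median log2 fold change was -0.07 in moderate and -0.43 in severe cachexia. Of all genes tested, 22.2% were lower in moderate and 17.8% in severe cachexia. In moderate cachexia 1 marker was lower without control mouse 2 or moderate mouse 5 or 12. In severe cachexia 0 were lower without severe mouse 13 or 16, 1 without control mouse 2 or 4 and 5 without severe mouse 11. Summed signals of the markers overlapped between groups, at 12211 to 17988 in severe, 14587 to 18060 in moderate and 16076 to 17098 in control mice. The part of fibroblasts in the tendon and collagen values was not tested.

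Of 5 tested muscle spindle genes linked to EGR3, 1 rose and 2 fell in moderate cachexia and 2 fell in severe cachexia. Etv4, an ETS factor, was not well above background on any moderate array and was lower there by at least 1.35-fold (adjusted p = 0.000746, limma). Its log2 fold change in severe cachexia was -0.57 (adjusted p = 0.00253, limma), with 1 of 4 severe arrays detected. The Etv4 probe passed the detection filter only through the controls, where it was high, so the filter bears on these tests. Myh6, an alpha cardiac myosin also found in spindle fibres, fell, with log2 fold changes of -1.49 and -1.27. Ngfr, a neurotrophin receptor, rose by 0.70 in moderate cachexia (adjusted p = 0.0474), a call lost in 6 of the 11 fits without 1 array (control 1, 2 or 3, moderate 9 or 12, severe 16). In moderate cachexia 1 gene fell without moderate mouse 9 and 2 rose without severe mouse 13, and in severe cachexia 1 fell without control mouse 1 or 2 or severe mouse 15.

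Fuel genes linked to NR4A receptors in rodent muscle were all tested, 13 in number. In moderate cachexia 2 rose and 5 fell, and in severe cachexia 7 fell. Prkag3, the AMPK subunit of glycolytic fibres, fell by 2.31 log2 units in moderate (adjusted p = 0.000343) and had a log2 fold change of -2.11 in severe cachexia (adjusted p = 0.000508). Bpgm, the bisphosphoglycerate mutase, fell, with -0.93 and -0.42, and so did Phkg1, the catalytic subunit of muscle phosphorylase kinase, with -1.23 and -1.79. Ucp3, a mitochondrial carrier, rose by 1.64 in moderate cachexia. It was the only gene of the 13 to pass between the stages, at -1.33, severe minus moderate (adjusted p = 0.0116, limma), a call lost without moderate mouse 5. Falls in moderate cachexia numbered 2 without control mouse 2, moderate mouse 5 or moderate mouse 12, and 3 without control mouse 1 or 4, and 1 gene rose in place of 2 in all fits without 1 array but those without severe mouse 11 or 13. In severe cachexia 3 passed as lower without severe mouse 13, and 4 without control mouse 2 or severe mouse 16, while 1 gene rose without severe mouse 11 or 13.

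Other cell types that carry early genes were read by their markers. Of 4 tested neutrophil genes, none passed in moderate and 2 rose in severe cachexia, and the counts ran over 0 to 2 and 1 to 3 with 1 array left out. Their summed signal was 1135 in control mouse 1 and 146 to 160 in the other controls. It was 219 to 668 in moderate and 494 to 1428 in severe mice. Without control mouse 1, 2 neutrophil genes rose in moderate cachexia. None of the 8 lymphocyte markers could be tested. Of 9 endothelial genes, 2 rose in moderate cachexia (1 in 8 of the 11 fits without 1 array) and none passed in severe cachexia (2 rose without control mouse 2, and 1 rose and 1 fell without severe mouse 11), and of 5 smooth muscle and pericyte genes 1 fell at each stage. Of 3 satellite cell genes, 1 rose and 1 fell in severe cachexia (neither without control mouse 1), and Pax7 and Myf5 were not detected on any array. Adipocyte markers fell, 6 of 7 in moderate and 5 of 7 in severe cachexia (2 to 7 with 1 array left out, fewest without severe mouse 16), and severe mouse 11 kept a summed signal of 8466, where the other severe mice had 1698 to 2777, moderate mice 2207 to 3100 and controls 5224 to 9316. Of 2 red blood cell genes 1 rose in severe cachexia, and of 9 muscle fibre genes 1 fell there.

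Genes whose pattern over the 11 arrays was most like that of Ier3 were Midn, the nuclear protein midnolin (Pearson's r = 0.97), Sema3f, a semaphorin (0.96), and Rit1, a small GTPase (0.96). All of them passed at both stages, with log2 fold changes of 1.05 and 0.64 for Midn in moderate and severe cachexia. Those most like Nr4a3 were Brd1, a bromodomain protein, and the predicted genes Gm5643 and Gm10052 (0.95 each). Gm10052 rose by 2.20 log2 units in moderate cachexia and differed by -1.82, severe minus moderate (adjusted p = 0.000774). These correlations are over arrays that share their groups and describe likeness only.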

How the data were processed

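Intensity values as deposited had been generated by the authors in BeadStudio, background-subtracted and normalized with GeneSpring GX. Sorted signals of the arrays differed by at most 0.319, and 28.5% were below 0. The deposited detection p-values also came from the authors' BeadStudio step. The deposited ratio of each array is the authors' signal floored at 1 over the controls' median, and was used as an alternative. For BeadStudio's settings, the sources used here give nothing. The number after a mouse is that of its signal column, and chip positions are not known.

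Signals went through neqc (normexp from detection p-values, offset 16, quantile, log2) in limma 3.58.1, R 4.3.3. The brightest probe per gene, of 18837 probes passing the filter out of 45281, represented it. Probes with 1 symbol numbered 34885, with several 18, with none 10378; only the first were named. A limma fit with 3 group means (eBayes with trend) on all 11 arrays gave each contrast, with Benjamini-Hochberg adjustment over 10134 genes and a threshold of 0.05. Replicates are mice, so p-values measure the spread between mice. On simulated data with 10134 genes, 70 of 100 log2 changes of 1 were recovered in moderate and 91 of 100 in severe cachexia, and 17 of 100 changes of 0.5 in moderate cachexia. The simulation changed 100 genes by each size, whereas 41.1% of genes passed in moderate and 33.3% in severe cachexia. With so few changed genes the adjustment is stricter, so these recoveries do not give the power of the fit reported.

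Members and gene lists were chosen with earlier results of these data known. All members are named, with up to 4 genes of smallest adjusted p per pathway list and the 3 genes most like each changed member. Where no array of a group detected the probe, the fold is a lower bound against the lowest detected signal per array. Alternatives were: background correction, scaling, the deposited ratios, the detection filter, probes per gene, arrays in the fit, trend, the methods' t-test and each array left out. Each changed 1 choice, except that the deposited ratios also bring their own floor and no normexp, and that the replicate block was fitted on those ratios. List counts without severe mouse 11 were added after seeing the data.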

Additional observations from a re-analysis of the deposited data

Results flagged for a closer look

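Control mouse 2 was set apart from the other controls on Ier3: the gap to its nearest neighbour was 0.971 of the group's whole range (log2 signals), past the 95% critical value of Dixon's test for 4 samples. Its signal was the lowest, 238.6, against 350.3 to 354.3 in the others. Without this mouse the log2 fold change of Ier3 was 1.22 in moderate and 0.81 in severe cachexia, and both passed.

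Control mouse 4 was set apart on the tested Nr4a3 probe, with a gap of 0.86 of the range. Its signal was 15.2, the only control detected, against 2.4 to 4.62 in the others. Without it the log2 fold change of Nr4a3 was 1.07 in moderate and 0.36 in severe cachexia (adjusted p = 0.00149 and 0.132). Both flags came from 24 groups examined (12 probes in severe and control mice), where chance flags about 1 in 20.

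Nr4a3 was noted because the stages differed by the test of the difference itself, at -0.71 on the log2 scale, severe minus moderate (adjusted p = 0.0401, limma). All severe mice lay below all moderate mice on the tested probe. This probe passed the detection filter only through the moderate mice, where it was high, so the filter bears on the test. The call was lost with no detection filter and held in 4 of the 11 fits that left out 1 array.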

How the results depend on the processing

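The rise of Ier3 passed under every alternative run, at log2 fold changes of 1.22 to 1.48 in moderate and 0.81 to 0.99 in severe cachexia, and the rise of Nr4a3 in moderate cachexia passed under each alternative that tested it, at 0.46 to 2.97. The number of members changed in moderate cachexia, 2, was 1 where probes had to be detected on all arrays, which left 3 members tested, and 2 to 3 with 1 array left out. In severe cachexia it was 1, and 1 to 2 with 1 array left out, the gain being Egr2 without mouse 11. Between the stages it was 1 (Nr4a3), and 0 without normexp, on the deposited ratios with or without the replicate block, without a detection filter, with detection on all arrays, in a fit of only the groups compared and by the methods' t-test, and 0 to 1 with 1 array left out. The cause was not tested, except that detection on all arrays removes Nr4a3. The same number in the labels did not pair samples: 1 of 10 same-numbered pairs correlated above 0.1 in their deviations (range -0.35 to 0.13). With the replicate block on the deposited ratios, the counts of members changed were 2 for moderate cachexia, 1 for severe cachexia and 0 between the stages, while calls over all genes between the stages fell to 238, against 693 without the block. Signs turned only for values that did not pass. Egr1, severe minus moderate, was -0.15 with the replicate block, and Egr2 was -0.0025 without normexp and on the deposited ratios. With 1 array left out, Egr1 in severe cachexia ran over -0.59 to 0.063, and severe minus moderate Egr1 over -0.19 to 0.42, Egr2 over -0.19 to 0.17, Egr3 over -0.25 to 0.22 and Nr4a2 over -0.15 to 0.054. Egr2 in moderate cachexia passed when only the groups compared were fitted (adjusted p = 0.032). Genes called between the stages numbered 707 in the fit reported. Over the alternatives with 1 value per gene they ran from 7 by the methods' t-test to 774 with the mean of probes. Signals near background limit what Egr3, Nr4a2 and Nr4a3 can show.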
